A study of Mus musculus with 4 samples.

Results

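The clustered protocadherin genes lie on mouse chromosome 18 in the alpha, beta and gamma clusters. They were taken as every gene of the GENCODE M1 annotation of mm9 whose symbol starts with Pcdha, Pcdhb or Pcdhg followed by an isoform name, which gave 25 of 37273 genes. This annotation gathers the alpha isoforms under the symbols Pcdha11 and Pcdha3 and the whole gamma cluster under Pcdhgc5, so the 25 genes divide into 2 alpha, 22 beta and 1 gamma. The isoforms were therefore also located one by one, each through the long open reading frame of its variable exon in the mm9 sequence. This gave 58 isoforms, of which 14 were alpha, 22 beta and 22 gamma. Their alpha and gamma names come from RefSeq, matched by the span from the start codon to the 3′ end of the cluster.

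Clustered protocadherins are cell-surface adhesion proteins of the cadherin family, best known in neurons, where different cells show different combinations of isoforms and cells with the same combination recognise each other. In the alpha and gamma clusters each variable exon has a promoter of its own and encodes the extracellular part, and it is spliced to constant exons shared by all isoforms of that cluster. Beta genes have no shared constant exons. Choice among these promoters is known to involve DNA methylation, antisense transcription and the looping factors CTCF and cohesin.

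Binding of KDM5C, a demethylase of lysine 4 of histone H3 also called SMCX, was measured with ChIP-Seq in male mouse epiblast-like cells (EpiLCs) at day 2. The labels give the strain as C57BL/6J, whereas the methods name other backgrounds for the mutant mice. Cells of both genotypes carried a truncating deletion of Tsix, the antisense repressor of Xist, and had either intact Kdm5c (WT) or deleted Kdm5c (KO), an allele reported to leave barely detectable protein. Each genotype had 1 immunoprecipitated and 1 input sample, 4 samples in all, and 1 peak list, made from replicates for WT and from a single replicate for KO according to the names inside the lists. The labels describe conversion to EpiLCs alone, whereas the methods place day 2 beyond that stage, so the stage is not settled here.

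The WT list held 6933 peaks, 6916 of them on assembled chromosomes and 213 of these on chromosome 18. The KO list held 47 peaks, 44 on assembled chromosomes and 1 on chromosome 18. The lists hold no read counts, so the depth behind each peak is unknown. Replicate error could not be had from single lists, and no test was made. Intervals given with shares are exact Clopper-Pearson 95% intervals that cover counting error only, and they take isoforms or peaks as independent, which isoforms of shared sequence are not.

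All KDM5C peaks of the protocadherins fell in the gamma cluster. The gamma cluster held 9 WT peaks and 0 KO peaks, and the alpha and beta clusters held 0 peaks of either list. The clusters are of similar order in size: the annotated genes span 257 kb in alpha (chr18:37089939-37347311), 256 kb in beta (chr18:37424652-37681073) and 168 kb in gamma (chr18:37833989-38001527). The gamma cluster thus held 53.7 WT peaks per Mb, against 2.43 per Mb over the ungapped length of chromosome 18, and it held 4.23% of the WT peaks of that chromosome. The start codons of all alpha and beta isoforms lay at least 195 kb from the midpoint of the nearest WT peak. The only KO peak on the chromosome lay 30.9 Mb from the gamma cluster.

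**Figure D1:**
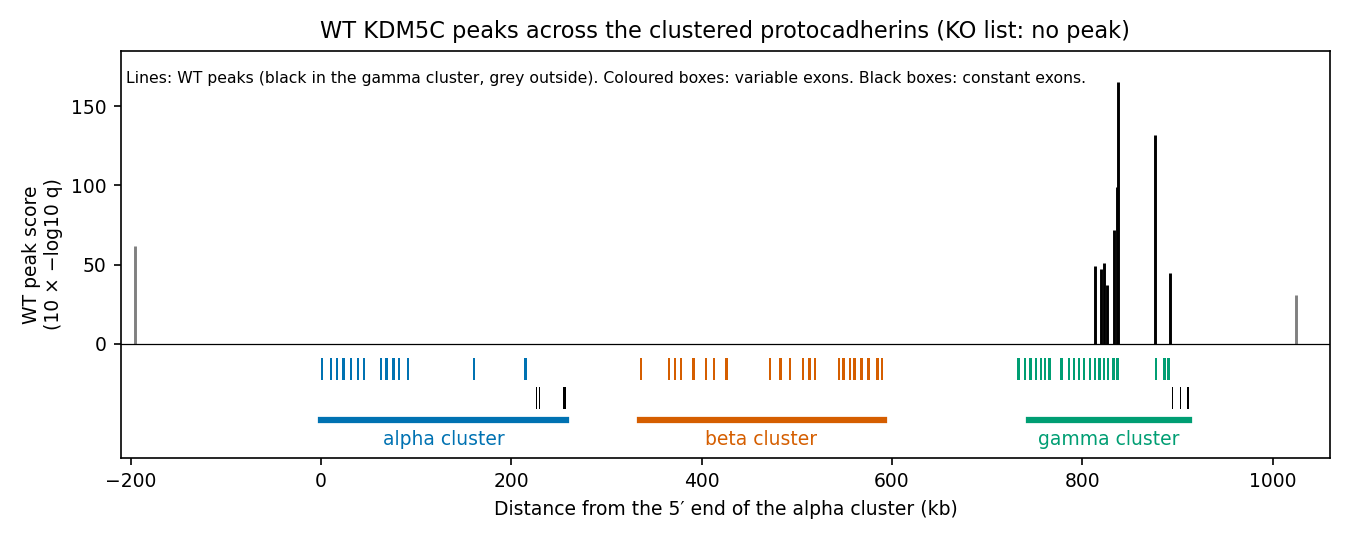
WT peaks along the protocadherin clusters, placed by distance in kb from the 5′ end of the alpha cluster, with line height giving the peak score (10 times the −log10 of the q-value). Coloured boxes are variable exons, black boxes constant exons and coloured bars the annotated genes; the 9 black lines all stand in the 3′ part of the gamma cluster, and the 2 grey lines are the nearest WT peaks on either side.

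Few of these peaks lay at promoters. Counted by the 5′ end of each gene, 0 of the 25 clustered protocadherin genes had a WT peak midpoint within 1 kb, where 22.0% of 22367 protein-coding genes did, and 43.0% of those with a CpG-rich promoter. Since the annotation merges isoforms, the counts were repeated over every distinct annotated transcript start. A WT peak lay within 1 kb of 0 of 11 alpha starts, 0 of 26 beta starts and 2 of 10 gamma starts. By gene, that is 1 of 25 with a peak at any transcript start, against 24.0% of protein-coding genes. The 2 starts were those of Pcdhga11 and Pcdhgc3. No start of any cluster had a KO peak, where 0.0805% of protein-coding genes had one at the 5′ end. CpG-rich sequence lay around 2 of 11 alpha, 0 of 26 beta and 2 of 10 gamma starts. The WT shares above are thus unlike backgrounds for most of these starts. Of the 4924 protein-coding genes with a WT peak at the 5′ end, 4244 were among the 9880 with a CpG-rich promoter. The share over genes without a CpG-rich promoter was thus well below 22.0%, and 0 of 25 stands less far from it.

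Peaks were also counted along the reading frames. Of the 22 gamma isoforms, 3 had a WT peak midpoint within 1 kb of the start codon, and 8 had a reading frame that a WT peak overlapped by at least 1 bp. The count was 7 with each reading frame cut at the annotated end of its exon, which leaves out Pcdhgc5, and 6 where the summit or the midpoint had to lie in the reading frame. The share of isoforms with either was 36.4% in gamma (interval 17.2 to 59.3%), against 0% in alpha (up to 23.2%) and 0% in beta (up to 15.4%). Over the 58 isoforms it was 13.8% (6.15 to 25.4%). Coding exons at least as long as the shortest of these reading frames (2232 bp) numbered 509 in other protein-coding genes. A WT peak overlapped 8.25% of them, and 8.84% had either an overlap or a midpoint within 1 kb of the 5′ end of the coding exon. Each of the 9 gamma peaks overlapped a reading frame, and 8 did so before the annotated exon end.

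The gamma isoforms divided by position. From the 5′ end of the cluster the first 13 isoforms, from Pcdhga1 to Pcdhga9, had no WT peak over 80.3 kb. From Pcdhgb6 to the end of the cluster, 8 of 9 isoforms had one, and the exception was Pcdhgc4. This division was read from the peaks themselves and was not tested. The 9 peaks formed a run of 79.0 kb (chr18:37903426-37982377) with gaps between neighbouring peaks of 826 bp to 37.4 kb. On either side the next WT peaks lay at promoters outside the clusters, 1010 kb upstream at Tmco6 (score 62) and 132 kb downstream at the paired promoters of Hdac3 and Rell2 (score 31).

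**Figure D2:**
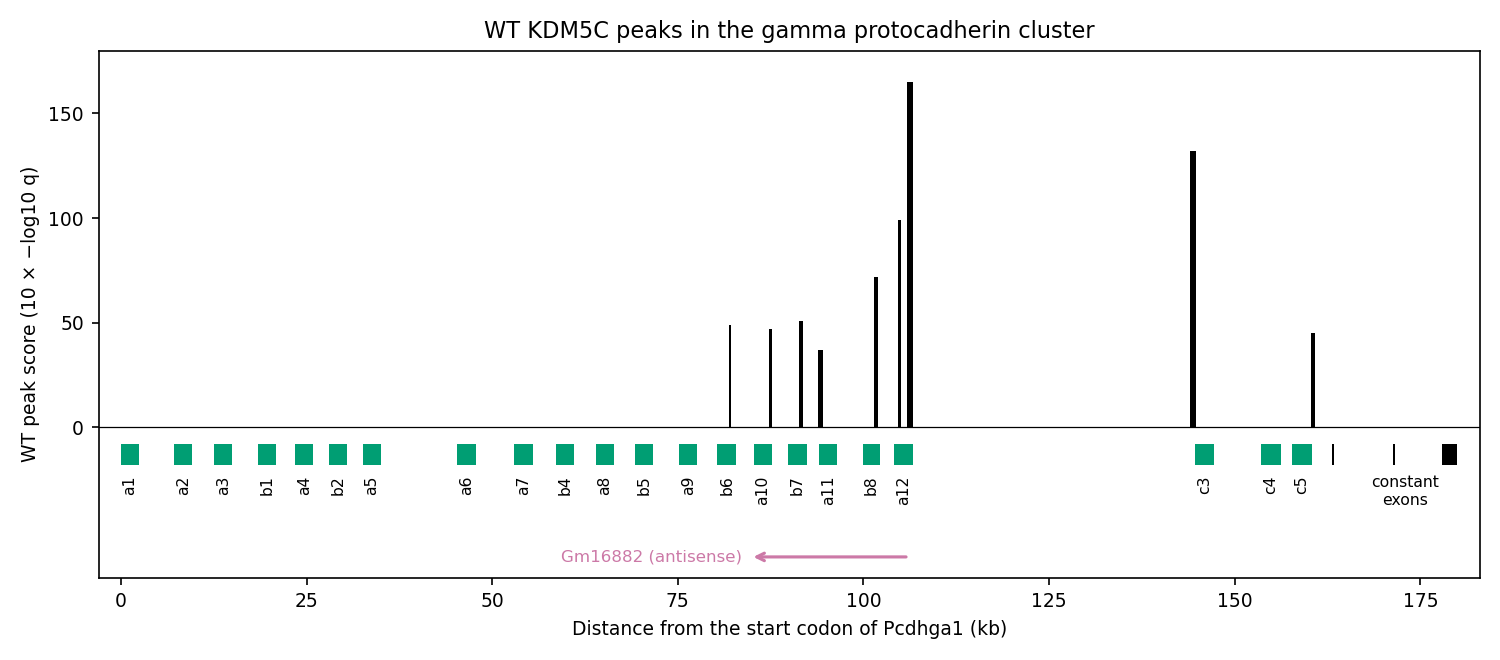
WT peaks in the gamma cluster by distance in kb from the start codon of Pcdhga1; black bars show each peak at its true width with its score as height, green boxes the 22 variable exons (prefix Pcdhg left out) and black boxes the constant exons. Bars begin at Pcdhgb6 and stand over or beside every later exon except Pcdhgc4, and the antisense RNA Gm16882 runs leftward across 6 of the 9 peak midpoints.

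The isoforms of the A and B subfamilies alternate along this stretch, and peaks were found at both types. The strongest peak of all (chr18:37927523-37928248) had a score of 165 and a fold enrichment over input of 4.34, and it lay at the 3′ end of the variable exon of Pcdhga12, the last A-type isoform. A second peak in the same exon (chr18:37926197-37926696) had a score of 99 and a fold of 3.82. Pcdhga12 was the only isoform with a pair of peaks. The other A-type peaks were weaker. At Pcdhga10 the peak (chr18:37908868-37909226) had a score of 47 and a fold of 3.32, and at Pcdhga11 (chr18:37915452-37916083) a score of 37, the lowest of the 9, and a fold of 2.97.

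The B-type peaks lay at Pcdhgb6, Pcdhgb7 and Pcdhgb8, the last of which RefSeq lists as a transcribed pseudogene. Pcdhgb6 (chr18:37903426-37903811) had a score of 49 and a fold of 3.04, Pcdhgb7 (chr18:37912880-37913507) a score of 51 and a fold of 3.24, and Pcdhgb8 (chr18:37923025-37923579) a score of 72 and a fold of 4.05. These exons share sequence with other B-type exons, and the authors kept uniquely mapped reads. Of all 50-base reads that could start in the Pcdhgb6 peak, 7.51% had a single place on chromosome 18 with up to 2 mismatches. The share was 22.2% in the Pcdhgb8 peak and 77.1% in the Pcdhgb7 peak, and it was at least 94.9% in the other 6 peaks. The part of shared sequence in the Pcdhgb6 and Pcdhgb8 peaks was not tested.

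The C-type isoforms, which are more alike in expression between neurons than the others, did not share one pattern. Pcdhgc3 had a promoter peak (chr18:37965614-37966329) with a score of 132 and a fold of 3.79, whose midpoint lay 93 bp upstream of the annotated start and whose summit stood at -327 bp from the start codon. Pcdhgc4, the next isoform, had no peak, and its start codon lay 6936 bp from the nearest WT midpoint. The peak at Pcdhgc5 (chr18:37981870-37982377) was the weakest by fold at 2.85, with a score of 45, and its summit lay 44 bp past the end of the reading frame. Pcdhac1 and Pcdhac2, the C-type isoforms of the alpha cluster, had no peak.

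Most summits lay toward the 3′ end of the reading frame or just past it. In 5 of the 9 peaks the summit lay within a reading frame past 60% of its length, counted from the start codon, and that of Pcdhgc5 lay after its end. It lay 1742 bp after the start codon in Pcdhgb6, 67.9% of the way through the reading frame. The corresponding shares were 65.3% in Pcdhgb7, 78.6% in Pcdhgb8, 90.5% in Pcdhga10, 89.8% for the stronger Pcdhga12 peak and 102% in Pcdhgc5. The other peaks had their summits early in the frame, at 10.5% in Pcdhga11 and 28.7% in Pcdhga12, or before it in Pcdhgc3.

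**Figure D3:**
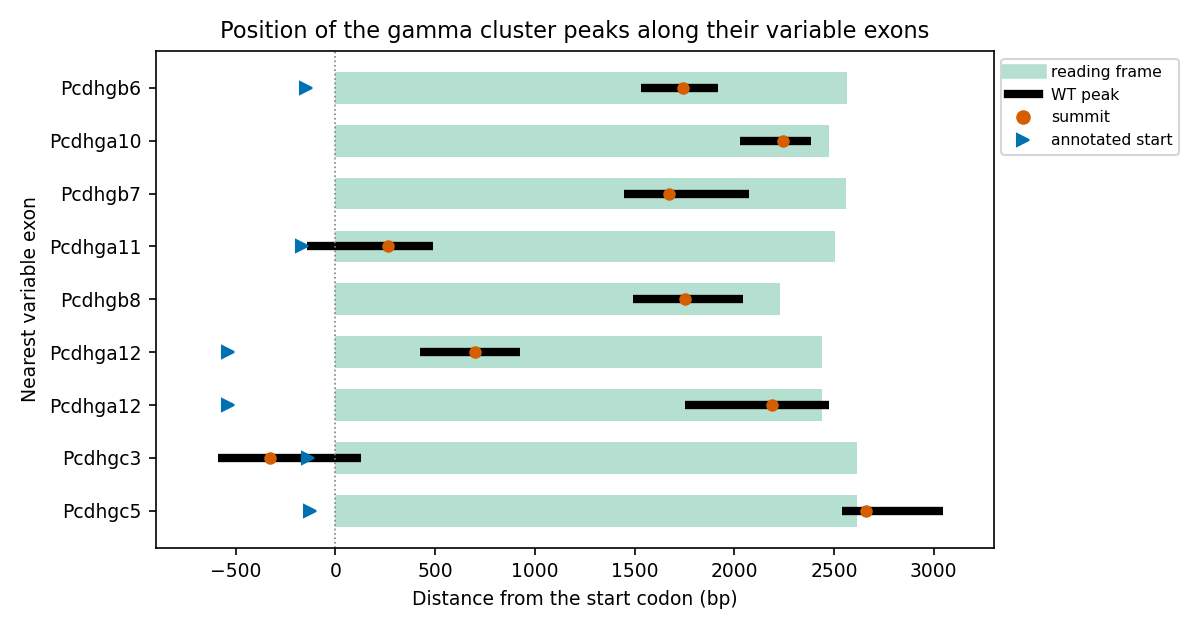
Each gamma peak (black, with its summit in orange) along the reading frame of its nearest variable exon (pale green), by distance in bp from the start codon, with the first annotated transcript start as a blue triangle where the annotation has one. Of the 9 summits 5 lie in the reading frame past 60% of its length and 1 after its end. The Pcdhga11 and Pcdhgc3 peaks are the ones at an annotated protocadherin start. The starts of the antisense RNA Gm16882 are not drawn, and the midpoint of the stronger Pcdhga12 peak lies 11 bp from one of them.

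Measured from annotated starts, 7 of the 9 gamma peaks (77.8%, interval 40.0 to 97.2%) lay more than 1 kb from every clustered protocadherin start. From the starts of any gene, 6 of 9 did (66.7%, 29.9 to 92.5%), against 23.7% of all WT peaks (22.7 to 24.7%). Peaks away from starts with a summit in annotated coding sequence were 6.12% of the WT list. In gamma only the Pcdhgb6 peak and the weaker Pcdhga12 peak were of this kind. The summits at Pcdhga10, Pcdhgb7 and Pcdhgb8, which lack an annotated start, lay in annotated intron of Pcdhgc5. The summit at Pcdhgc5 lay in exon outside its annotated coding part. The difference between the counts of 7 and 6 comes from the antisense lincRNA Gm16882 (chr18:37906213-37927896), whose 2 annotated starts both had a WT peak within 1 kb. The midpoint of the strongest Pcdhga12 peak lay 11 bp from one of them, and the midpoint of the Pcdhga11 peak lay 159 bp upstream of the other. Of the 9 gamma peaks, 6 had their midpoint within Gm16882. The other antisense genes annotated here, Gm10545 and the lincRNA Gm10544 in the alpha cluster, had 0 peaks. ChIP-Seq peaks have no strand, so a peak at an overlap cannot be assigned to either gene.

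Variable and constant regions were then compared. Alpha and gamma each have 3 constant exons, within 41.1 kb and 19.7 kb after the last variable exon. The alpha constant region held 0 peaks. The gamma constant region held 1 WT peak, against 8 in the 148 kb of the variable region as annotated. That 1 was the Pcdhgc5 peak, which starts 82 bp after the annotated end of the last variable exon and overlaps the end of the reading frame. With the constant exons and 1 kb on either side as the region, the count was 0. The constant exons themselves, which encode the intracellular part shared by the isoforms, thus had no peak midpoint within 1 kb in either cluster.

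The gamma peaks were mostly weaker than the WT list as a whole. Their scores ran from 37 to 165 with a median of 51, against a WT median of 82, and 3 of the 9 were at or above that median. Folds ran from 2.85 to 4.34 with a median of 3.32, against 3.72, and 4 of 9 were above. Widths ran from 359 to 726 bp with a median of 555 bp, against 524 bp. At a score at or above the WT 90th percentile of 320, 0 of the 9 peaks remained. The 3 peaks above the score median were both Pcdhga12 peaks and the Pcdhgc3 peak.

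Base composition was described next, since most WT peaks lie in CpG-rich sequence. Sequence was called CpG-rich at a ratio of observed to expected CpG of at least 0.6 with a GC content of at least 50%. By this rule 8 of the 9 gamma peaks (88.9%) were CpG-rich, against 81.6% of all WT peaks, and the Pcdhgc5 peak was not (ratio 0.511). Their median GC content was 58.6%, against 64.8% over the WT list, and their median CpG ratio was 0.834, against 0.802.

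Few isoform starts were CpG-rich. In the 500 bp on either side of the start codon the count was 2 of 14 in alpha, 0 of 22 in beta and 3 of 22 in gamma. The alpha pair was Pcdhac1 and Pcdhac2, and the gamma isoforms were Pcdhgb6, Pcdhgc3 and Pcdhgc4. Of these isoforms, Pcdhgc3 had a WT peak at its start and Pcdhgb6 had one late in its reading frame. Pcdhac1, Pcdhac2 and Pcdhgc4 had none. The part of a CpG-rich start in the placement of peaks was not tested.

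The reading frames themselves differed more between clusters. Whole reading frames were CpG-rich in 12 of 14 alpha, 0 of 22 beta and 9 of 22 gamma isoforms. Within gamma the count was 3 of 13 before Pcdhgb6 and 6 of 9 from Pcdhgb6 on. In the last kb of the reading frame the median CpG ratio was 0.633 in alpha, 0.457 in beta, 0.289 in gamma before Pcdhgb6 and 0.553 from Pcdhgb6 on. Among A-type gamma isoforms the ratio there was 0.553 in Pcdhga10, 0.552 in Pcdhga11 and 0.699 in Pcdhga12, which had peaks. In the 9 A-type exons from Pcdhga1 to Pcdhga9, which had none, it ran from 0.139 to 0.289. The A-type values with and without a peak thus did not overlap in this window, a contrast chosen after the values were seen. The Pcdhga11 peak lies early in its reading frame and not here. Around the start codon the A-type values did overlap, at 0.63 to 0.888 with a peak and 0.509 to 0.775 without. In the last kb over all gamma isoforms they also overlapped, at 0.406 to 0.871 with a peak and 0.139 to 0.831 without. The A-type exons with a peak are the last of their type along the cluster, so composition and position cannot be told apart. B-type exons were high throughout. The ratio was 0.678 in Pcdhgb1, 0.725 in Pcdhgb2, 0.684 in Pcdhgb4 and 0.831 in Pcdhgb5, without peaks, and 0.871 in Pcdhgb6, 0.776 in Pcdhgb7 and 0.731 in Pcdhgb8, with peaks. Alpha exons of similar composition had no peak either. These values are descriptions of the reference sequence, and their part in the placement of peaks was not tested.

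Unique mapping was measured beside these counts, because reads from near-identical exons are dropped. The median share of unique 50-base reads over the reading frame was 73.3% in alpha (43.6 to 100%), 75.2% in beta (51.7 to 100%) and 93.1% in gamma (60.3 to 100%). Within 1 kb of the start codon the medians were 86.0%, 100% and 97.8%. In the last kb it was 29.6% in Pcdhgb1, 32.0% in Pcdhgb2, 56.9% in Pcdhgb4 and 41.7% in Pcdhgb5, without peaks, and 47.8% in Pcdhgb6, 85.7% in Pcdhgb7 and 56.4% in Pcdhgb8, with peaks. Medians were thus lower in alpha and beta reading frames than in gamma, and B-type exons with and without a peak overlapped in this share. All reads were unique on chromosome 18, the only sequence searched, in Pcdhac1, Pcdhac2, Pcdhb1 and Pcdhgc4, which had no peak. The same held for Pcdhgc3 and Pcdhgc5, which had one. The part of uniqueness in the 0 counts was not tested.

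**Figure D4:**
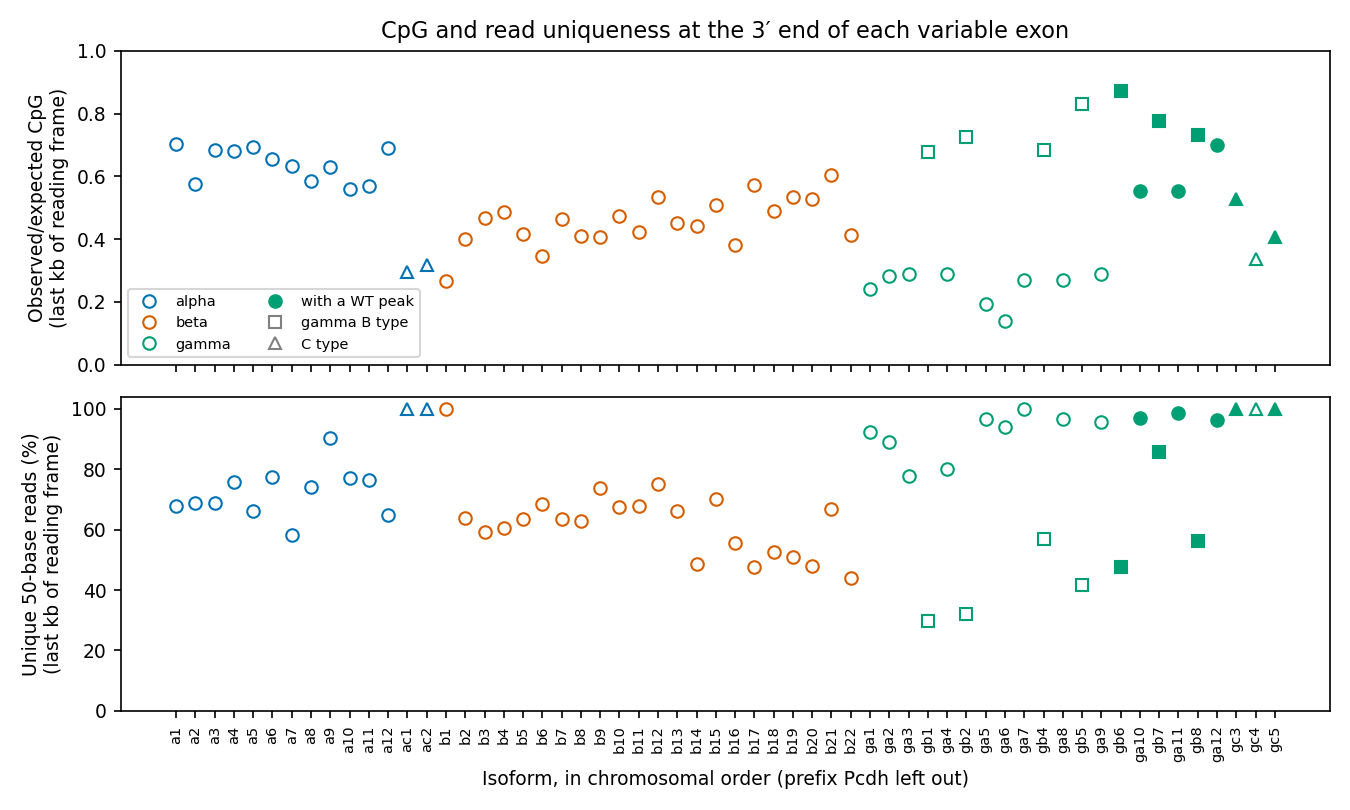
Ratio of observed to expected CpG (above) and percent of unique 50-base reads (below) in the last kb of each reading frame, for the 58 isoforms in chromosomal order; filled symbols have a WT peak, squares are B-type gamma exons and triangles C-type exons. The A-type gamma exons with a peak (filled circles) have ratios of 0.552 to 0.699, above those of Pcdhga1 to Pcdhga9, whereas B-type exons are high with and without a peak and mostly low in uniqueness. The A-type contrast was chosen after the values were seen, and the Pcdhga11 peak lies outside this window. Over all gamma isoforms the ratios with and without a peak overlap.

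Short motifs were searched on both strands in the 250 bp on either side of each summit. None of the letter strings contains another. CACGTG, the E-box bound by MAX and MYC, was found in 4 of 9 gamma peaks (44.4%), at Pcdhgb6, Pcdhga10, Pcdhgb7 and Pcdhgb8, against 26.8% of all WT peaks. TCCCGC, the core of E2F sites, was found in 7 of 9 (77.8%) against 55.7%. The parts of the REST site, TTCAGCACC and GGACAGCGC, were found in 0 of 9 gamma peaks, against 0.94% and 1.62%.

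In the 500 bp on either side of annotated starts the clusters differed. CACGTG was found at 8 of 11 alpha, 4 of 26 beta and 0 of 10 gamma starts. That made 12 of the 47 starts (25.5%), against 17.1% of 69963 protein-coding transcript starts. TCCCGC was found at 9 of the 47 starts (19.1%), against 44.7%. The REST parts were found at 0 and 1 of the 47 starts, against 1.46% and 1.48%. The part of these motifs in the placement of peaks was not tested. A match of letters does not show that a factor binds there.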

How the data were processed

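KDM5C ChIP-Seq was analysed from 1 deposited peak list per genotype. The authors aligned 50 bp single-end reads to mm9 with Bowtie (1.1.2 in the submitters' processing notes; the methods name another version), allowed 2 mismatches, kept uniquely mapped reads, and called peaks against input with MACS2 2.1.0.20140616 at a q-value limit of 0.1. The score deposited by the authors is 10 times the −log10 of the q-value with decimals dropped. The authors also deposited, as MACS2 wrote them, the −log10 q-value, the fold enrichment of immunoprecipitate over input at the summit (a ratio) and the summit offset. WT and KO lists were called separately, and their values were not set against each other. Since only WT peaks were called on replicates, the WT list can have more power. Read counts are not given in the lists. The paper states a minimum number of reads, and of uniquely mapping reads, for each sample, but the lists do not give the depth of each. The number of columns without a sample was 0.

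A peak was placed by its midpoint, within 1 kb of a start, on NCBIM37 (the mm9 assembly) with GENCODE M1. Variable exons were plus-strand open reading frames of at least 2200 bp, of which 61 were found and 58 named. Alpha and gamma names came from RefSeq genes whose span to the 3′ end of the cluster matched within 1500 bp; RefSeq positions belong to another build and were not used otherwise. For 53 of 53 A, B and alpha or beta isoforms the closest protein was of the same subfamily. Beta names came from annotated genes, and the others were matched within their own cluster. This check can thus reveal a mix-up of types within alpha or gamma, but not one within a subfamily. Counting by variable exon and by transcript start was chosen after seeing the data, because the annotation merges isoforms. Read uniqueness was measured with bwa 0.7.19 against chromosome 18 only. Placement was tried on simulated data: 400 of 400 simulated peaks were placed as made. They were set by the same distance rule that placement uses. This checks the code only, not the naming of isoforms or the annotation.

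The members, lists and motifs were chosen with earlier results of these data known. Named with values were the C-type isoforms, every peak in a constant region or away from isoform starts, other genes inside the clusters, and, by rule, the strongest peaks at starts; the A- and B-type isoforms set side by side for composition were chosen after their values were seen. Shares carry exact Clopper-Pearson intervals. Alternatives were other windows (500 bp, 5 kb), placement by summit or overlap, merging of peaks within 1 kb, stricter scores and other starts. Python 3.11.15, NumPy 2.4.6, SciPy 1.17.1, pysam 0.24.0, Biopython 1.88 and matplotlib 3.10.9 were used.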

Additional observations from a re-analysis of the deposited data

How the results depend on the processing

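Of 77 recomputed counts over 9 results, 62 stayed within 1.5 times the count reported and 15 did not. The alpha, beta and KO counts at starts were 0 in all 11 settings tried for them, and many of the unchanged counts are these. That outcome was fixed, since the widest window was 5 kb. Alpha and beta start codons lay at least 195 kb from the nearest WT midpoint, and the nearest KO peak lay 30.9 Mb from gamma. Genes with a WT peak at a start went from 0 to 1 (Pcdhgc5, all clusters and gamma) with any annotated transcript start, and alternatives chosen after seeing the data gave 2 distinct transcript starts and 3 start codons, in all clusters and in gamma, in place of genes. When scores had to reach the WT median, the 9 cluster peaks and the 9 away from gene 5′ ends became 3, the constant-region count of 1 became 0, and the 8 overlapped reading frames became 2; at or above the 90th percentile each became 0. The constant-region count was also 0 with constant exons and 1 kb on either side. Gamma start codons with a peak were 2 within 500 bp and 8 within 5 kb, and annotated gamma starts 2 and 6. Depth is known only as the minimum per sample that the paper states, which limits each absence. No paired analysis was possible because a single list was made per genotype.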

Other observations

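Genes related to the clustered protocadherins were counted as whole lists, by a WT peak within 1 kb of the gene 5′ end, where 22.0% of protein-coding genes had one. Of the non-clustered protocadherins, adhesion genes that stand alone in the genome, 1 of 12 had a peak (8.33%, interval 0.211 to 38.5%), and it was Pcdh8 with a score of 84. Of the 12, 7 have a CpG-rich promoter, and 43.0% of all protein-coding genes with such a promoter had a peak. Of the cadherins 4 of 23 did (17.4%, 4.95 to 38.8%). These were Cdh1, the epithelial cadherin, with a score of 105, Cdh2, the neural cadherin, with 177, Cdh3 with 92 and Cdh4 with 57. Among 13 genes known to act on clustered protocadherin promoters, 2 did (15.4%, 1.92 to 45.4%): Smc1a, a cohesin subunit, with 248, and Smchd1, a chromatin repressor, with 128. Ctcf and Rest were among those without one. By any transcript start, where the background is 24.0%, Stag1, another cohesin gene, brought this list to 3 of 13 (23.1%, 5.04 to 53.8%), and Cdh23 brought the cadherins to 5 of 23 (21.7%, 7.46 to 43.7%). Among 10 proteins that act with clustered protocadherins in the cell, 1 did (10.0%, 0.253 to 44.5%), the kinase gene Ptk2 with a score of 141. By any transcript start 3 of the 10 did (30.0%, 6.67 to 65.2%), with the kinase gene Fyn and Ctnnb1, the gene of beta-catenin.

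Between Tmco6 and Hdac3, which flank the clusters and had promoter peaks, no other annotated protein-coding gene had a WT peak at its 5′ end. Those with a CpG-rich promoter were Ndufa2, Ik, Wdr55, Hars, Zmat2, Gm10545 and Diap1. Of all protein-coding genes with such a promoter 43.0% had a WT peak, so most lacked one. Slc25a2 and Taf7, which lie between the beta and gamma clusters, had none.

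The gamma run was set beside other dense places in the WT list, as a description. Its length of 79.0 kb is that from the first to the last gamma peak, so its density of 114 peaks per Mb follows from that choice. On the assembled chromosomes, 3 places held at least 9 WT peaks within that length. These were the gamma cluster, a place on chromosome 9 from position 2999674 with up to 15, among predicted genes such as Gm10722, and a place on chromosome 11 from position 3000274 with 9, near Sfi1. Both others lie at the first assembled bases of their chromosome. At least 7 peaks within 24.8 kb, the length from the Pcdhgb6 peak to the last Pcdhga12 peak, were found at 2 places, on chromosome 9 and in the gamma cluster. Both lengths were chosen after the peaks were seen.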
